A study of Mus musculus with 3 samples.

Results

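The Dppa family and Utf1-type early genes are 10 genes, chosen by symbol: Dppa2, Dppa3, Dppa4, Dppa5a, Utf1, L1td1, Tcl1, Tdh, Fbxo15 and Trap1a. All 10 were found among the 14133 genes of the deposited table, and all 10 had more than the minimum of 10 UMIs that was set for a gene to be compared. A UMI (unique molecular identifier) is a short random tag that lets each captured RNA molecule be counted once. The cells were Oct4-EGFP+ primordial germ cells sorted from fetal ovaries of C57BL/6 mice at embryonic day 12.5 (E12.5), 14.5 (E14.5) and 16.5 (E16.5), with 1 droplet library (10x Genomics 3' chemistry, version 2) per stage. All 3 groups carried the Oct4-EGFP reporter and none received a treatment that the labels state. An Oct4-EGFP reporter is driven by regulatory sequence of Oct4 (Pou5f1), itself an early germ cell gene that was 36.0-fold lower at E16.5 than at E12.5 in these cells, so cells that had lost the reporter would not have been sorted. The labels do not say how many embryos were pooled. With 1 library per stage, no difference between stages has a replicate check, stage and library cannot be told apart, and no p-value is given.

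Primordial germ cells of the fetal ovary first divide as a proliferating population that keeps many transcripts of pluripotent stem cells, and then enter meiosis in response to retinoic acid and BMP signals. The genes described here are markers of the first state. Most were first named from mouse embryonic stem cells or from the early embryo: the Dppa (developmental pluripotency associated) genes were found by their expression pattern alongside Oct4, and their products are not a single protein family. DPPA2 and DPPA4 are chromatin proteins with a SAP domain, DPPA3 (also called STELLA or PGC7) shields DNA from maintenance methylation, and DPPA5A (ESG1) is an RNA-binding protein with a KH domain. UTF1 is a chromatin-associated protein of stem cells and the germ line, L1TD1 is an RNA-binding protein derived from the LINE-1 retrotransposon, TCL1 is a cofactor of the kinase AKT, and TDH is the mitochondrial threonine dehydrogenase on which mouse embryonic stem cells depend. FBXO15 is an F-box protein, the substrate-binding part of an SCF ubiquitin ligase, and Trap1a is an X-linked gene that encodes the mouse tumour antigen P1A.

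The libraries held 4706 cells at E12.5, 9075 at E14.5 and 5363 at E16.5, with medians of 26691.5, 10960 and 12659 UMIs per cell. Depth therefore differed between stages, most between E12.5 and the later libraries. Cells were clustered without the 10 genes, and 4678, 8903 and 5312 cells at E12.5, E14.5 and E16.5 fell in clusters with germ cell markers (germ-cell-like). A further 25, 166 and 22 cells formed a cluster led by Wnt6, Fst, Wt1 and Amhr2, genes of the supporting cells of the ovary (pregranulosa-like). Those 4 genes stood at no more than 1.15 CPM (UMIs per 1000000 UMIs) in the germ-cell-like cells of any stage. CPM values were made from UMIs summed over the germ-cell-like cells of a stage, with exact 95% Poisson intervals that cover counting error only. A 3' tag is counted per molecule, so CPM values here are not scaled by gene length, and they give shares of a cell's RNA, not molecules per cell. Of the barcodes, 101 at E12.5, 130 at E14.5 and 115 at E16.5 were also found in another library.

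Taken as a sum, the 10 genes held 7064 CPM at E12.5, 1503 CPM at E14.5 and 304.4 CPM at E16.5, which is 0.706%, 0.150% and 0.0304% of all UMIs of the germ-cell-like cells. Dppa5a alone supplied 52.4% of the sum at E12.5, 44.4% at E14.5 and 33.1% at E16.5, so the sum follows Dppa5a before any other gene. Comparing E14.5 with E12.5, 9 of the 10 genes were at least 2-fold lower and 0 were at least 2-fold higher, where 16.3% of 14132 genes were that much lower and 31.2% that much higher. The exception was Trap1a. Comparing E16.5 with E14.5, 9 were at least 2-fold lower and 1, Fbxo15, was at least 2-fold higher, against 17.4% and 16.3% of all genes. Over the whole interval, E16.5 against E12.5, 8 were at least 2-fold lower and 0 were higher, against 22.7% and 37.0% of all genes. With median-of-ratios scaling, 22.3% of all genes were lower and 25.2% higher at E14.5 than at E12.5, and 28.8% lower and 30.1% higher at E16.5 than at E12.5, where Trap1a then brought the members that were lower to 9. The median log2 ratio of the 10 genes was -2.59, -2.27 and -5.09 in these 3 comparisons, beside 0.30, 0.06 and 0.39 over all genes. The E14.5 library enters the first and the second comparison, so they are not independent of each other. These counts hold for ratios of summed UMIs. On the mean of the deposited natural log values, which compresses low genes, 2 genes were at least 2-fold lower and 0 were higher at E16.5 than at E14.5. On that scale Dppa2, L1td1 and Fbxo15 also fell short of 2-fold at E14.5 over E12.5 (ratios 0.685, 0.607 and 0.808). So did Dppa2 and L1td1 at E16.5 over E12.5 (0.652 and 0.592).

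**Figure D1:**
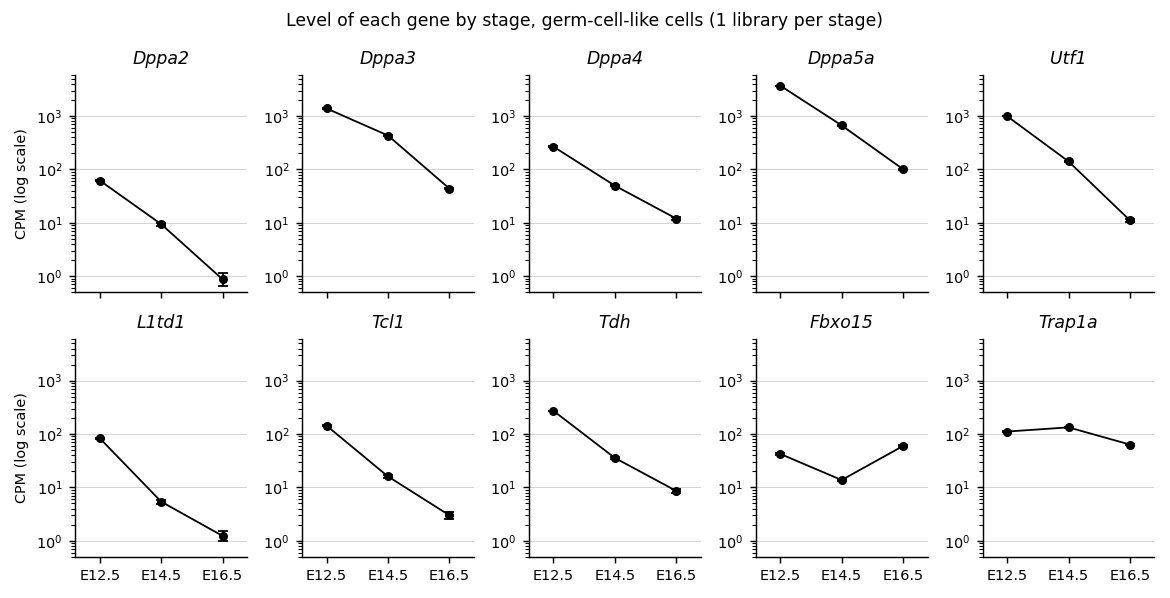
Level of each of the 10 genes in germ-cell-like cells (CPM of summed UMIs, log axis) at E12.5, E14.5 and E16.5, with 1 library per stage and bars for the exact 95% Poisson interval. 8 of the lines step down at each stage, while Fbxo15 is lowest at E14.5 (13.7 CPM) and Trap1a is highest there (133 CPM).

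Dppa2 and Dppa4, whose proteins bind each other and keep the promoters of developmental genes free of DNA methylation in mouse embryonic stem cells, lie side by side on chromosome 16 (GRCm38). Dppa4 spans chr16:48283733-48294237 and Dppa2 spans chr16:48303908-48319723, both on the plus strand, with 9.67 kb between them. Dppa2 had 61.7 CPM at E12.5, 9.40 CPM at E14.5 and 0.870 CPM at E16.5. Its E16.5 level rests on 60 UMIs in 51 of 5312 cells, with an interval of 0.664 to 1.12 CPM. Dppa4 had 267 CPM at E12.5, 49.5 CPM at E14.5 and 12.0 CPM at E16.5. The neighbours thus had the same order of stages but unequal differences: at E16.5 Dppa2 was 71.0-fold lower than at E12.5 (interval 55.1 to 93.1) and Dppa4 22.3-fold lower (interval 20.8 to 23.9), and these intervals do not overlap. Between E14.5 and E12.5 the pair was closer, 6.57-fold lower for Dppa2 and 5.38-fold lower for Dppa4. Without 235 E16.5 cells that clustered with E14.5 cells, described further on, the E16.5 level of Dppa2 was 0.0392 of its E14.5 level, against 0.0925 with them. The Dppa4 ratio was 0.179 without them and 0.242 with them.

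Dppa3 (chr6:122626410-122630272, plus strand), Dppa5a (chr9:78367052-78368177, minus strand) and Utf1 (chr7:139943789-139945112, plus strand) were the abundant genes of the set. At E12.5 Dppa5a ranked 45th by CPM among all genes, Dppa3 123rd and Utf1 167th. DPPA3 binds UHRF1 and so limits the maintenance of DNA methylation, and mouse oocytes carry it as a maternal factor into the zygote. Dppa3 had 1386 CPM at E12.5, 431.4 CPM at E14.5 and 43.7 CPM at E16.5. Its 2 steps were unequal: 3.21-fold lower at E14.5 than at E12.5, and 9.87-fold lower at E16.5 than at E14.5, so that 33.8% of its whole log2 difference lay in the first interval. Dppa5a had 3705 CPM at E12.5, 667.7 CPM at E14.5 and 100.8 CPM at E16.5. Over all germ-cell-like cells those steps were nearly even, 5.55-fold and then 6.63-fold lower at the later stage. Utf1, needed in mouse stem cells for bivalent promoters to stay poised, had 993.2 CPM at E12.5, 141 CPM at E14.5 and 11.1 CPM at E16.5. No other gene of the set differed by as much over the whole interval: Utf1 was 89.3-fold lower at E16.5 than at E12.5 (interval 83.2 to 96.0). The pregranulosa-like cells of the E16.5 library had 17.0 CPM of Dppa3 (5 UMIs) and 44.1 CPM of Dppa5a (13 UMIs). For Utf1 they had 3.39 CPM (1 UMI). The part of background in the E16.5 levels was not tested, so the folds of Dppa3, Dppa5a and Utf1 at E16.5 are not read as exact. Without the 235 E16.5 cells named above, the E16.5 level was 0.0425 of the E14.5 level for Dppa3, against 0.101 with them. For Utf1 the ratio was 0.0331 without them and 0.0788 with them. The Dppa5a ratio was 0.105 without them and 0.151 with them, beside 0.180 for E14.5 over E12.5. The steps of Dppa5a were thus nearly even only with the 235 cells included. A pseudogene, Dppa3-ps, is annotated in the mouse genome and had no row of its own here, so reads shared between it and Dppa3 cannot be told apart.

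L1td1 (chr4:98726734-98738480, plus strand), Tcl1 (chr12:105216750-105222793, minus strand) and Tdh (chr14:63492347-63509092, minus strand) had their larger step before E14.5. L1td1, whose RNA-binding product acts with LIN28 in human embryonic stem cells, had 83.3 CPM at E12.5, 5.39 CPM at E14.5 and 1.23 CPM at E16.5. It was 15.4-fold lower at E14.5 than at E12.5 (interval 14.2 to 16.8), the widest first step of the set, and 4.38-fold lower at E16.5 than at E14.5. So 65.0% of its log2 difference lay in the first interval. Tcl1, which binds AKT kinases and raises their activity, had 143 CPM at E12.5, 16.01 CPM at E14.5 and 3.001 CPM at E16.5. Tdh encodes the enzyme that starts the breakdown of threonine to glycine and acetyl-CoA in mouse mitochondria. It had 272 CPM at E12.5, 35.7 CPM at E14.5 and 8.60 CPM at E16.5. The first step was 8.93-fold for Tcl1 and 7.62-fold for Tdh, and the second was 5.33-fold for Tcl1 and 4.15-fold for Tdh. The pregranulosa-like cells of the E16.5 library, ovarian supporting cells, should lack both transcripts. They had 6.78 CPM of Tcl1 (2 UMIs) and 10.2 CPM of Tdh (3 UMIs). Neither E16.5 level of the germ-cell-like cells stood above theirs, so the second folds are not read as exact. Dppa4 also had its larger log2 difference in the first interval (54.2%), but by little: its ratio was 0.186 at the first step and 0.242 at the second, and the second was 0.179 without the 235 E16.5 cells, which turns the order. Tdh overlaps Gm17232, an antisense gene whose own level was 0.0240 CPM at E12.5, 0.332 CPM at E14.5 and 2.88 CPM at E16.5, against the direction of Tdh.

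Fbxo15 and Trap1a did not follow the other 8 genes. Fbxo15 had 42.3 CPM at E12.5, 13.7 CPM at E14.5 and 59.6 CPM at E16.5. It was thus 3.08-fold lower at E14.5 than at E12.5 and 4.34-fold higher at E16.5 than at E14.5 (interval 4.09 to 4.62). The E16.5 over E12.5 ratio of Fbxo15 was 1.41, and between 1.08 and 1.51 under the other scalings and cell choices. Fbxo15 overlaps Timm21, a mitochondrial import gene on the opposite strand, which had 17.0, 11.8 and 15.6 CPM at E12.5, E14.5 and E16.5. Whether counting used strand is not given in the sources used here, so the part of reads from such partners was not tested. Trap1a (chrX:139333683-139338169, plus strand) had 111 CPM at E12.5, 133 CPM at E14.5 and 63.5 CPM at E16.5. Its E14.5 over E12.5 ratio of 1.20 lay near the middle of all genes, 48.7% of which had a lower ratio, and it went to 0.955 with median-of-ratios scaling, so its direction is not settled. At E16.5 Trap1a was 2.10-fold lower than at E14.5 and 1.75-fold lower than at E12.5. With median-of-ratios scaling its E16.5 over E12.5 ratio was 0.439, which is past 2-fold.

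Promoter sequences from RefSeq (GRCm38.p6, 250 bases before to 50 after the start, gene strand) were at hand for 4 of the 10 genes, and they are shown because 3 of them (Utf1, L1td1 and Tcl1) were among the genes with a large step at both intervals and the fourth, Trap1a, was not. The windows are chr7:139943606-139943905 on the plus strand for Utf1, chr4:98726504-98726803 on the plus strand for L1td1, chr12:105222688-105222987 on the minus strand for Tcl1, and chrX:139333433-139333732 on the plus strand for Trap1a. Capitals mark the GC box GGGCGG (bound by SP and KLF factors) and the pentamer CCAAT (bound by NF-Y), each searched on both strands.
Utf1: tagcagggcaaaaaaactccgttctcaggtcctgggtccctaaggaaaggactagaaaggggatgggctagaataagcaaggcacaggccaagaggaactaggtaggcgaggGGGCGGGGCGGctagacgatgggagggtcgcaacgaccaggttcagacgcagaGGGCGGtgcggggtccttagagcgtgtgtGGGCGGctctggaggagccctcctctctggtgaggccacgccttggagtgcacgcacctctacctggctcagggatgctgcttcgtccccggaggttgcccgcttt
L1td1: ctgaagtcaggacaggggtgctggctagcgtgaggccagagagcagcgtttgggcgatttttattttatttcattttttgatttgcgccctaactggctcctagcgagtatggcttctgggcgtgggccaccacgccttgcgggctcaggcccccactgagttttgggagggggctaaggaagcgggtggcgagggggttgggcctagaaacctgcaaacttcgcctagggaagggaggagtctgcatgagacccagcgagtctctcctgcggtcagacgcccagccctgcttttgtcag
Tcl1: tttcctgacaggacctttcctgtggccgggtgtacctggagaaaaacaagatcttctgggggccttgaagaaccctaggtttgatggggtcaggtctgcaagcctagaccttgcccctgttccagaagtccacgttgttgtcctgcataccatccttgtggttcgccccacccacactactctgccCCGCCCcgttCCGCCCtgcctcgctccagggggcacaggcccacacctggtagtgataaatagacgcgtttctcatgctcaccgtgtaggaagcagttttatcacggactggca
Trap1a: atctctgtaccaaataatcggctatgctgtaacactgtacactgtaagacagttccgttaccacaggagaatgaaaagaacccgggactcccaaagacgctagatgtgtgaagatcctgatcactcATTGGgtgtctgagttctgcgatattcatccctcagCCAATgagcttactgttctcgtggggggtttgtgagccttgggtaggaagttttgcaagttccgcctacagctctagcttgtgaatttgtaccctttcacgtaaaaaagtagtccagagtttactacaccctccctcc
The Utf1 window held 4 GC boxes, the first pair overlapping, at positions -138, -133, -85 and -56 from the start, and 5.49% of 32851 mouse promoter windows held as many. Tcl1 had 2 GC boxes, as many as in 19.5% of windows, and Trap1a had 2 CCAAT pentamers, as many as in 11.7% of windows. At least 1 GC box was present in 35.7% of all windows and at least 1 CCAAT in 37.4%. Neither motif was found in the L1td1 window. The octamer ATGCAAAT (1.74% of windows), the E-box CACGTG (7.15%), the E2F words TTCCCGCC and GGCGGGAA (2.19%) and the word CNCCTCAG (7.94%), which STRA8 with MEIOSIN binds, had 0 matches in all 4. CG dinucleotides numbered 17 in Utf1, 14 in L1td1, 11 in Tcl1 and 8 in Trap1a, beside a median of 7 over all windows. So the 3 promoters of genes that were lower at each later stage had no word in common among those searched apart from CG.

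The share of cells in which each gene was seen followed its level. To set stages of different depth side by side, each cell was thinned at random to 5000 UMIs, which left out 0, 11 and 25 shallower germ-cell-like cells at E12.5, E14.5 and E16.5. Dppa3 was seen in 99.9% of E12.5 cells, 60.5% of E14.5 cells and 9.74% of E16.5 cells. Utf1 was seen in 98.9%, 36.0% and 3.42%, and Dppa5a in 100%, 83.1% and 28.4%. Without thinning, the shares at E16.5 were 19.4% for Dppa3, 7.62% for Utf1 and 52.2% for Dppa5a. The dispersion of Dppa3 counts between cells also differed: the variance over the mean was 1.28 at E12.5, 2.94 at E14.5 and 2.93 at E16.5, where counting error alone gives a value near 1. A Dppa3 UMI was thus spread over nearly every cell at E12.5 and gathered in a portion of the cells later. The rarer genes were seen in 25.5% (Dppa2), 33.2% (L1td1) and 73.2% (Dppa4) of thinned E12.5 cells, and in 0.246%, 0.511% and 4.99% of E16.5 cells. Fbxo15 was seen in 18.4%, 6.55% and 26.0% of thinned cells at E12.5, E14.5 and E16.5, and Trap1a in 39.3%, 41.5% and 25.1%. Unthinned, Fbxo15 was seen in 63.0%, 14.1% and 51.7% of cells, an order of E12.5 and E16.5 opposite to that of its CPM, and that order is not read.

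Counted per cell, fewer genes of the set were seen at each later stage. A thinned cell held a UMI of a median of 6 of the 10 genes at E12.5, 3 at E14.5 and 1 at E16.5. At least 5 of the 10 were seen together in 90.7% of E12.5 cells, 12.9% of E14.5 cells and 0.643% of E16.5 cells. Cells with none of the 10 made up 0 of 4678 at E12.5, 7.31% at E14.5 and 34.4% at E16.5. The E14.5 cells covered the widest range, with 0 to 9 of the genes in a cell. Without thinning the mean number per cell was 8.97, 3.80 and 2.05 at the 3 stages, since deeper cells show more of the genes.

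**Figure D2:**
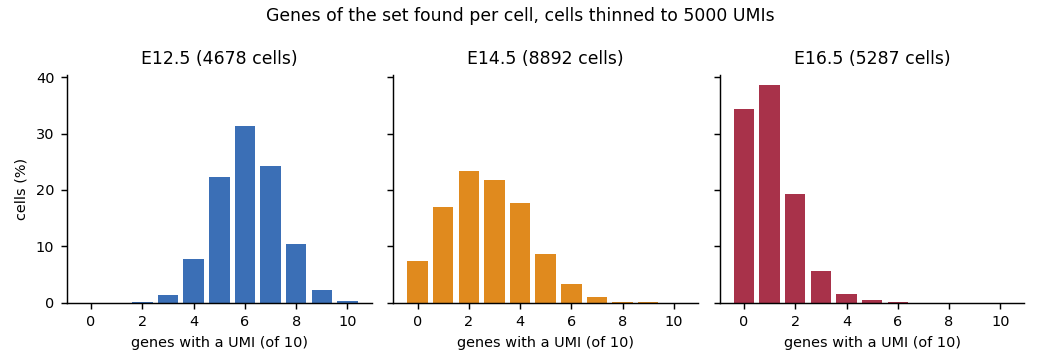
Share of germ-cell-like cells (percent) by the number of the 10 genes with at least 1 UMI, after thinning each cell to 5000 UMIs, at E12.5, E14.5 and E16.5. The medians are 6, 3 and 1 genes, and the E14.5 cells span 0 to 9.

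Pregranulosa-like cells, which should lack these transcripts, serve as a rough guide to UMIs that do not come from the cell's own expression. At E12.5 the 25 such cells showed each of the 10 genes at 23.8% to 40.8% of the germ-cell-like level. A few cells carried much of this, since after thinning 8 of the 25 showed none of the 10 genes and 4 showed at least 5 of them. At E14.5 the 166 such cells showed 11.8% to 40.6% of the germ-cell-like level. Thinned shares of cells there were 13.9% for Dppa3, 24.1% for Dppa5a, 4.82% for Utf1 and 8.43% for Trap1a, and each of the 10 genes was seen in a larger share of germ-cell-like cells. Median depths were 8491.5 UMIs in the pregranulosa-like cells and 10960 UMIs over the E14.5 library. There too the signal was uneven, since 108 of the 166 cells showed none of the 10 genes after thinning and 3 showed at least 5 of them. At E16.5 there were only 22 pregranulosa-like cells, and Utf1 was seen in 1 of them (4.55%), Tcl1 in 1 and Tdh in 3 (13.6%), shares at or above those of the germ-cell-like cells (3.42%, 1.13% and 3.52%). With so few pregranulosa-like cells (the interval for Utf1 is 0.115% to 22.8%), these shares cannot tell which E16.5 cells express the 3 genes. In CPM, these 22 cells had 28.4% (Fbxo15) to 48.1% (Trap1a) of the germ-cell-like level for Dppa3, Dppa5a, Utf1, Fbxo15 and Trap1a. They had more than that level for Tcl1 and Tdh, and 0 UMIs of Dppa2, Dppa4 and L1td1. Each gene had 13 UMIs or fewer in them, and the part of background in the E16.5 levels was not tested. The germ-cell-like cells were also not alike. In 235 E16.5 cells described below, Utf1, Tcl1 and Tdh had 117, 14.9 and 33.8 CPM. The other E16.5 cells had 4.68, 2.28 and 7.06 CPM.

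Pairs of the genes had higher correlations within E14.5 cells than within E12.5 cells. Over the 45 pairs, the median Pearson r of thinned natural log values was 0.01 at E12.5, 0.09 at E14.5 and 0.04 at E16.5, with a highest value of 0.147, 0.532 and 0.307. Each r is over the cells of 1 library (4678, 8892 and 5287 cells), is given as a description, and in counts this sparse a low r has no reading. The highest at E14.5 were Dppa3 with Dppa5a (0.532), Dppa3 with Utf1 (0.478) and Dppa5a with Utf1 (0.379). Tcl1 and Tdh were both seen in 166 cells at E14.5, 2.61 times the number given by the product of their shares. Dppa2 and Dppa4, the neighbours on chromosome 16, were both seen in 109 cells, 1.93 times that product, with an r of 0.0846. Fbxo15 stood apart: its r with the other genes at E14.5 lay between -0.0372 and 0.0121. Depth was equal after thinning, yet cells with many UMIs differed from cells with few: in unthinned E14.5 cells the summed level of the 10 genes had an r of 0.506 with total UMIs, against 0.0713 at E12.5.

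**Figure D3:**
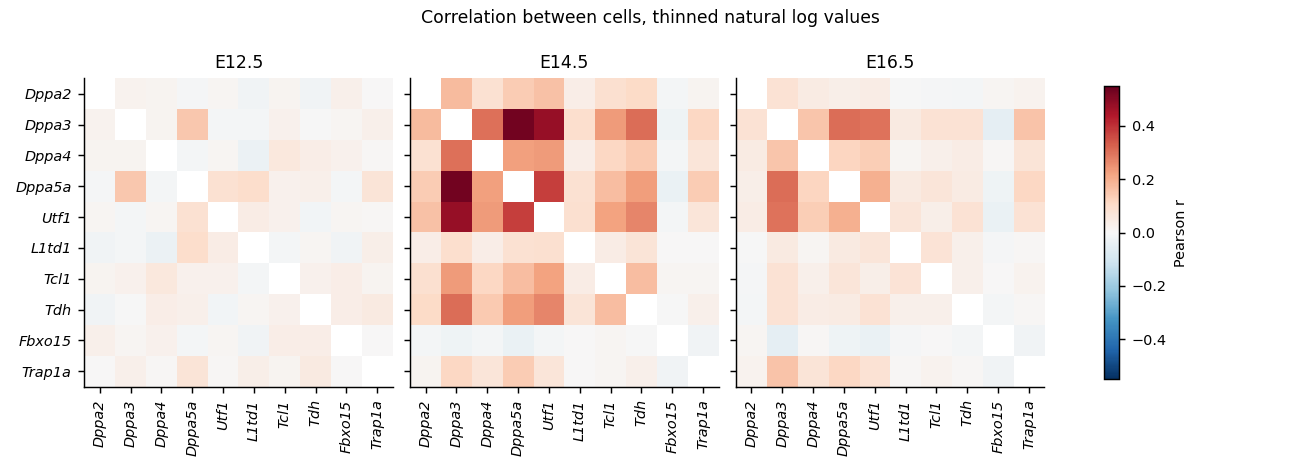
Pearson r between the 10 genes over germ-cell-like cells thinned to 5000 UMIs, 1 panel per stage in the order E12.5, E14.5, E16.5 and 1 square per pair. Squares among Dppa3, Dppa5a and Utf1 are the darkest at E14.5 (0.379 to 0.532), and the Fbxo15 row is near 0.

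Clusters of E14.5 cells differed in these genes although the genes had no part in the clustering. Genes that vary with them did have a part, so the differences are given as a description. Most E14.5 cells lay in cluster 4 (2923 cells, led by Cdh15, Dlx3 and Cdx2), cluster 5 (2778 cells, led by Msx1, Stra8 and Rec8) and cluster 6 (2929 cells, led by Tppp and Fgf11). Dppa3 had 826 CPM in cluster 4, 284 CPM in cluster 5 and 63.6 CPM in cluster 6. Utf1 had 272, 82.8 and 24.1 CPM and Dppa5a 1021, 596 and 266 CPM in the same clusters. Set as a ratio of cluster 4 to cluster 6, the differences were 37.0-fold for Dppa2 (16 UMIs in cluster 6), 23.5-fold for Tcl1, 15.01-fold for Tdh, 13.0-fold for Dppa3, 11.3-fold for Utf1, 10.1-fold for Dppa4, 5.84-fold for L1td1 and 3.84-fold for Dppa5a. Trap1a was 1.70-fold higher in cluster 4, and Fbxo15 was lower there, at 12.8 CPM against 18.4 CPM in cluster 6. For 5 of the 10 genes (Dppa2, Dppa3, Utf1, Tcl1 and Tdh) the cluster 6 level was at or below that of the pregranulosa-like cells. For Dppa2 it was 0.563 CPM, against 3.82 CPM in the pregranulosa-like cells. The pregranulosa-like level is thus not a floor for germ-cell-like cells. The part of background in the cluster 6 levels was not tested, and these ratios are not read as exact.

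**Figure D4:**
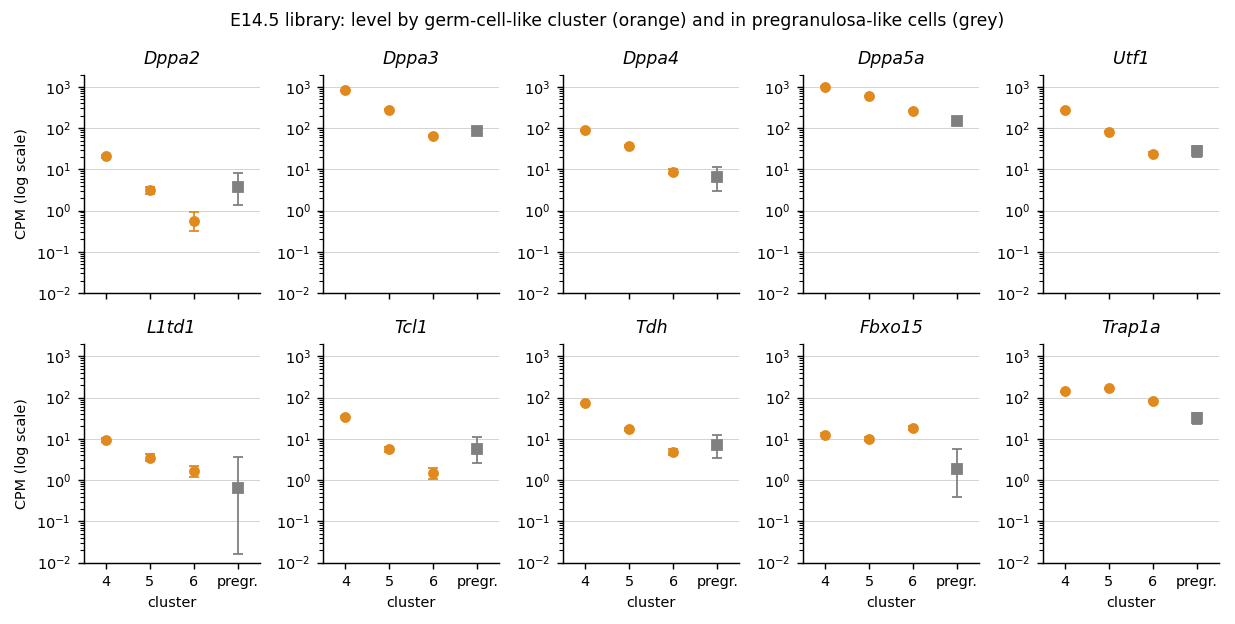
Level of each of the 10 genes (CPM, log axis) in E14.5 germ-cell-like cells of clusters 4, 5 and 6 (orange) and in the 166 pregranulosa-like cells of that library (grey), with exact 95% Poisson intervals. 8 genes step down from cluster 4 over cluster 5 to cluster 6, Trap1a is highest in cluster 5, and Fbxo15 is highest in cluster 6.

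A second ordering used the meiotic programme itself. The E14.5 cells were put in 3 equal parts by the share of their UMIs in 15 measured genes of the synaptonemal complex and cohesin. Sycp3, a core protein of that complex, had 1463 CPM in the highest-scoring part and 193 CPM in the lowest, which follows from the score. In the highest-scoring part against the lowest, Dppa2 had 0.671 against 20.4 CPM, Tcl1 1.73 against 34.9 CPM, Tdh 4.77 against 73.0 CPM and Dppa3 69.0 against 810 CPM. Dppa5a had 270 against 1021 CPM, and L1td1, already low at this stage, 1.73 against 9.25 CPM. The pregranulosa-like cells of this library had 3.82 CPM of Dppa2, 5.73 CPM of Tcl1, 6.998 CPM of Tdh and 83.3 CPM of Dppa3. Those 4 genes were below that level in the highest-scoring part, so their differences are not read as exact. With the parts made from meiotic entry genes instead, Dppa2 was 17.5-fold lower in the highest-scoring part, against 30.4-fold here, and Dppa3 7.46-fold lower, against 11.7-fold. Fbxo15 went the other way, with 19.11 against 12.6 CPM. Trap1a was highest in the middle part, at 161 CPM, with 90.6 CPM in the highest-scoring part and 140 CPM in the lowest. Median UMIs per cell were 9207 in the highest-scoring part and 13035.5 in the lowest, and the part of depth in these differences was not tested beyond the scaling to CPM. At E12.5 the same division gave ratios between 0.789 (Dppa5a) and 1.02 (Dppa2). The scored genes held 0.0577% of UMIs in the lowest-scoring part and 0.113% in the highest there, against 0.254% and 0.906% at E14.5. The E12.5 parts thus lay much closer in score, and the part of counting error in their order was not tested. These ratios therefore cannot tell whether the 10 genes follow the meiotic programme less at E12.5 than at E14.5.

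Among E12.5 cells, cluster 1 (629 cells, led by Lefty2 and Nodal and by the Y-linked genes Eif2s3y and Uba1y) had 5357 CPM of Dppa5a, against 3429 CPM in cluster 0 (3979 cells). The labels give the cells as female, yet 666 of 4678 germ-cell-like cells at E12.5 held a Y-linked UMI. In the cells with a Y-linked UMI, L1td1 was 1.61 times, Dppa5a 1.5 times, Utf1 1.30 times and Trap1a 1.27 times the level of the other E12.5 cells, and Dppa2 and Fbxo15 were 0.702 and 0.708 times that level. The other 4 genes lay between 0.813 (Tdh) and 1.06 (Dppa3). Leaving these cells out changed the E14.5 over E12.5 ratio of Dppa5a to 0.194, against 0.180 with them, and left 9 genes at least 2-fold lower.

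At E16.5, 235 germ-cell-like cells (4.42%) fell in clusters 4, 5 and 6, which are mostly of E14.5 cells, and they stood near the E14.5 levels for 9 of the 10 genes. Dppa3 had 461 CPM in these 235 cells, against 18.3 CPM in the other 5077 E16.5 cells, and 434 CPM in the E14.5 cells of the same clusters. Utf1 had 117 CPM, against 4.68 CPM in the other E16.5 cells and 141 CPM in the E14.5 cells. The 235 cells carried 60.5% of all Dppa3 UMIs of the stage, 60.4% of Utf1, 60.0% of Dppa2 and 34.3% of Dppa5a. For Dppa4, Tcl1, L1td1, Tdh and Trap1a the share was 30.1%, 28.5%, 27.1%, 22.6% and 15.2%. They carried 2.87% of Fbxo15 UMIs, and Fbxo15 had 29.8 CPM in them, against 61.4 CPM in the other E16.5 cells and 13.4 CPM in the E14.5 cells. Their median was 16594 UMIs per cell, and 3 of their barcodes also occurred in the E14.5 library. The origin of the 235 cells was not tested. All 10 genes kept their direction between E16.5 and E14.5 without them, with ratios between 0.0331 (Utf1) and 0.428 (Trap1a) for the 9 lower genes and 4.48 for Fbxo15. The reverse case was small: 23 E14.5 cells in cluster 0, a cluster of E12.5 cells, had 1336 CPM of Dppa3, 2219 CPM of Dppa5a and 715 CPM of Utf1, and shared no barcode with the E12.5 library.

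**Figure D5:**
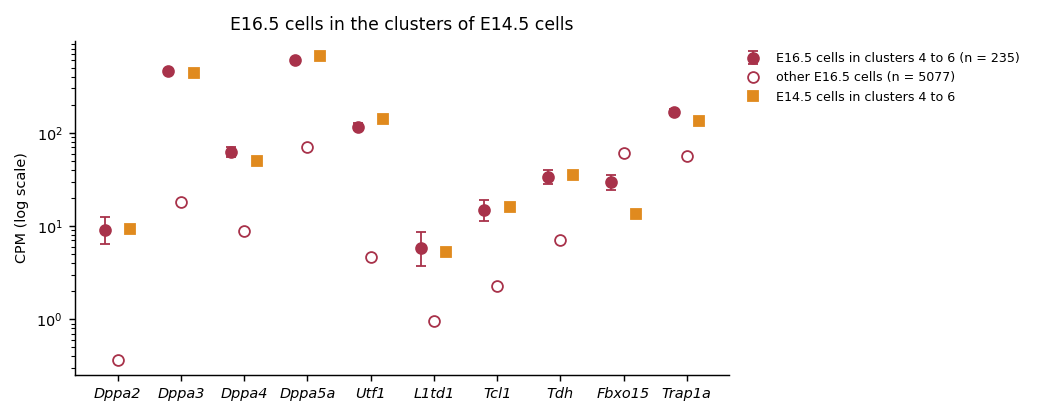
Level of each of the 10 genes (CPM, log axis) in the 235 E16.5 cells of clusters 4 to 6 (bars give the exact 95% Poisson interval), in the other 5077 E16.5 cells and in the E14.5 cells of clusters 4 to 6. The 235 cells sit near the E14.5 cells for 9 genes and lie between both groups for Fbxo15.

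Among the remaining E16.5 cells, cluster 7 (1750 cells, led by Pcdh17, Rad21l and Prdm9) and cluster 9 (3260 cells, led by Ablim1 and Myom3) differed by gene. Dppa3 had 25.05 CPM in cluster 7 and 14.5 CPM in cluster 9, Dppa5a 92.1 and 56.4 CPM, and Utf1 7.85 and 2.73 CPM. Dppa4 went the other way with 5.29 CPM in cluster 7 and 10.8 CPM in cluster 9, as did Tcl1 with 0.794 and 3.11 CPM and Fbxo15 with 52.9 and 66.3 CPM. Dppa3, Utf1, Tcl1 and Tdh in cluster 9 stood at or below the pregranulosa-like level. That level rests on only 5, 1, 2 and 3 UMIs in 22 cells, with an interval of 0.0859 to 18.9 CPM for Utf1. It therefore cannot place cluster 9 above or below background.

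Genes around the set were counted in fixed lists, which were chosen with earlier results of these data known. Over all genes, 22.7% were at least 2-fold lower and 37.0% higher at E16.5 than at E12.5, with a median log2 ratio of 0.39. Comparing E16.5 with E12.5, 18 of 23 measured core pluripotency genes were at least 2-fold lower and 1 was higher, among them Pou5f1 (18.9 CPM at E16.5 and 681 CPM at E12.5) and Nanog (0.217 CPM at E16.5 and 62.2 CPM at E12.5). Their median log2 ratio was -3.69. Of 12 paralogs of the 10 genes 5 were measured and 4 were lower, including Ooep and Khdc1a, which like Dppa5a encode proteins with a KH domain. Khdc1a had 0.362 CPM at E16.5 and 44.8 CPM at E12.5. Around Tdh, 13 of 19 genes of threonine, glycine and one-carbon metabolism were lower and 1 was higher (median -2.15). Amt, of the glycine cleavage system, had 0.580 CPM at E16.5 and 42.1 CPM at E12.5, and Tyms, thymidylate synthase, 12.0 CPM at E16.5 and 173 CPM at E12.5.

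Lists around the other genes are given against the same shares of all genes (22.7% lower and 37.0% higher). Around Tcl1, 2 of 22 AKT pathway genes were at least 2-fold lower and 7 higher at E16.5 than at E12.5 (median log2 ratio 0.51, beside 0.39 over all genes), which for the higher genes is near the share over all genes. Phlpp1, a phosphatase that acts on AKT, had 20.98 CPM at E16.5 and 0.863 CPM at E12.5. Around Fbxo15, 4 of 19 SCF core and F-box genes were lower and 7 higher, both near the shares over all genes, the meiotic F-box gene Fbxo47 having 89.7 CPM at E16.5 and 1.13 CPM at E12.5. Of 19 LINE-1 control genes around L1td1, 5 were lower and 10 higher. Lin28a had 4.13 CPM at E16.5 and 48.3 CPM at E12.5, while Mael, of the piRNA pathway, had 538 CPM at E16.5 and 50.4 CPM at E12.5. Of 28 X-linked germ line genes around Trap1a, 7 were lower and 16 higher, with Rhox5 at 43.6 CPM at E16.5 and 1102 CPM at E12.5 and Taf7l at 627 CPM at E16.5 and 1.15 CPM at E12.5. Of 13 genes of DNA methylation maintenance and DPPA3 partners, 4 were lower and 4 higher. Tet1 had 1.65 CPM at E16.5 and 46.0 CPM at E12.5, Tet3 10.3 CPM at E16.5 and 0.0879 CPM at E12.5. Of 25 genes of the early-embryo programme that DPPA2 and DPPA4 switch on in mouse stem cells, 1 was measured (Syce1), so that list gives no reading.

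The genes whose pattern between cells was most like the summed level of the set were ranked by the mean, over the 3 stages, of the within-stage Pearson r of natural log values, among 5145 genes with at least 10 CPM at every stage. The first 8 were Gpx1 (0.427), Mif (0.419), Pou5f1 (0.418), Rhox5 (0.418), Ifitm2 (0.413), Tuba1b (0.407), Gapdh (0.396) and Marcksl1 (0.390). For Dppa3 the most alike gene was Dppa5a (0.473) and for Utf1 it was Dppa3 (0.362). Tcl1 was most like Ube2c (0.234) and Ccnb1 (0.233), which act in mitosis, and Dppa2 most like Phlda2 (0.243). Fbxo15 had no close match, its highest mean being 0.0944 with Ube2s. The cells of each r share 1 library, and at E14.5 also a relation to depth, so these values describe likeness in these libraries only.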

How the data were processed

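The deposited table holds natural log values per gene and cell, which the authors made, as the values show, by scaling each cell's UMIs to 10000, adding 1 and taking the natural log. Libraries were made with the 10x 3' kit, version 2, per the labels' protocols, and Cell Ranger 2.0.0, FastQC and the mm10 build are named per the submitters' processing notes. No label or file header states how reads were counted or cells filtered. Undoing the log returned whole UMI counts for 100% of 68606039 non-zero values (within 0.01 of a whole number), and 125648312, 104214125 and 69821387 UMIs at E12.5, E14.5 and E16.5.

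Cells were clustered with scanpy 1.11.5 (2000 variable genes less 8 of the 10 described here, 30 components, 15 neighbours, Leiden resolution 0.5). Scrublet called 38 doublets (0.198%), which were left out, but a caller that marks so few may not have worked. UMIs were summed over germ-cell-like cells, and a difference of at least 2-fold was counted with no test, since there is 1 library per stage. Ratios have exact 95% conditional intervals, which cover counting error only. The ratios, their intervals and the 2-fold calls were tested on simulated sums with known ratios. Shares were computed in cells thinned to 5000 UMIs and were not tested by simulation. Thinning was checked only for the summed UMIs of the 10 genes in a part of the E12.5 cells. Example genes of a list were the 2 of highest CPM and the 2 of largest ratio with at least 10 CPM in the higher stage, and text names some of these. Every one of the 10 genes is described. The genes and lists were chosen with earlier results of these data known. Sequences are from RefSeq (GRCm38.p6) and gene positions from the GENCODE annotation of GRCm38, the build also called mm10. Of the 10 genes, Fbxo15 is given without its position.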

Additional observations from a re-analysis of the deposited data

How the results depend on the processing

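No paired analysis was possible because each stage is 1 library. The number of genes at least 2-fold lower or higher was recomputed with TMM and median-of-ratios scaling, with all cells, without cells holding a Y-linked UMI, without the 5% of cells with the most UMIs, as a mean over cells, in thinned cells, at Leiden resolutions 0.3 and 1.0, at folds of 1.5 and 4, and on natural log values. Of 78 such counts, 76 stayed within 1.5 times the reported count. The other 2 were on natural log values for E16.5 against E14.5, where 2 genes were lower and 0 higher, beside 9 and 1 on summed UMIs, because that scale compresses differences between low genes. Leaving out the 235 E16.5 cells was chosen after seeing the data and left these counts as reported. Of 330 ratios of single genes, 158 moved by more than their counting interval and 0 of those past 2-fold changed direction. Depth moved 58 of 60 shares of cells beyond their interval, ordering by meiotic entry genes moved 18 of 30 ratios between parts of a stage, and other clusterings moved 12 of 60 ranges between clusters. TMM and median-of-ratios scaling took the median log2 ratio of all genes at E14.5 over E12.5 to 0.03 and -0.03, beside 0.30 in CPM. Among genes with at least 10 CPM in the higher stage, the share of all genes lower at E16.5 than at E14.5 was 11.3%, beside 17.4%. Depth limits the low end: Dppa2 at E16.5 rests on 60 UMIs, L1td1 on 85 and Tcl1 on 207.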
